A study of Mus musculus with 18 samples.

Results

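The aryl hydrocarbon receptor and its classic target genes were followed through small intestinal eosinophils as 6 genes, *Ahr*, *Ahrr*, *Tiparp*, *Cyp1a1*, *Cyp1b1* and *Nqo1*. The members were taken by gene symbol, and all 6 were found among the 22708 genes of the deposited table. Bulk RNA was sequenced from eosinophils that had been bead-enriched for CD11b and sorted as CD11b+ MHC-II- SiglecF+ cells with high side scatter. The 18 samples, each from a mouse, comprised 6 labelled wild type (WT), 6 labelled *Ahr*-/- and 6 labelled *Ahrr*-/-, with 3 females (F1 to F3) and 3 males (M1 to M3) in each group. All mice were of the C57BL/6 strain, and the labels name no treatment of the mice. The methods of the study give an age of 6 to 14 weeks and state that *Ahr*-/- mice and WT controls were neither littermates nor cohoused, so litter and housing cannot be told apart from genotype. The methods do not describe the *Ahrr*-/- mice, and neither the labels nor the methods state which part of either gene was deleted, so genotypes are used as labelled. Expression was deposited after variance stabilization, in log2 units, and a gene without reads has the value 5.02. Counts and normalized counts (counts divided by the size factor of their sample) were recovered from these values. The total count per sample was 3842977 to 8149200 in WT, 6581818 to 10284124 in *Ahr*-/- and 8788867 to 12046933 in the samples labelled *Ahrr*-/-, so a low count is, at the group medians, least precise in WT.

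The AHR protein is a ligand-activated transcription factor that waits in the cytoplasm in a chaperone complex, moves to the nucleus when it binds a ligand such as a dietary indole or a tryptophan metabolite, and pairs there with ARNT on DNA. Its best known targets include cytochrome P450 enzymes (*Cyp1a1*, *Cyp1b1*), a quinone reductase (*Nqo1*) and genes that dampen the pathway (*Ahrr*, *Tiparp*). In the gut wall, barrier tissues receive such ligands from food and microbes, and several immune cell types there use the receptor.

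Some libraries differed from the rest before any member was considered. The summed normalized counts of 10 enterocyte genes were 19645 in F3, 20776 in M1 and 19257 in M3 of the group labelled *Ahrr*-/-, against 3362 in F1, 2838 in F2 and 8752 in M2 of that group and at most 10285 in WT and *Ahr*-/-. Several results of that group are therefore given with and without these 3 libraries, and its other results include them. F3 of WT and F3 of *Ahr*-/- had a count for 20244 and 19694 genes, against 15146 to 17236 in the other libraries. The sorted cell type was checked with 10 eosinophil genes. *Siglecf* had 1619 to 2306 normalized counts in WT, 2309 to 3113 in *Ahr*-/- and 836.8 to 2272 in the group labelled *Ahrr*-/-. *Ccr3* had 8965 to 14974, 10941 to 15235 and 5286 to 15551 in the same groups. *Ear6* had 2 counts over the 18 samples, *Ear1* 89, *Prg3* 89 and *Epx* 178. Several genes of granule proteins were thus near 0 in every group. The granule protein gene *Prg2* was not. It had 48.7 to 135.9 normalized counts in WT, 324.5 to 924.7 in *Ahr*-/- and 35.97 to 189.1 in the group labelled *Ahrr*-/-.

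Of the 6 members, 5 were matched to a promoter window in the RefSeq table of GRCm38.p6, and *Ahr* had none. The AHR-ARNT element has the core GCGTG. On either strand of the window from 250 bases before to 50 bases after the start site, *Ahrr* had 3 cores, at bases -107, -82 and -27 counted from the start, and *Tiparp* (-170), *Cyp1a1* (-54) and *Cyp1b1* (-76) had 1 each. *Nqo1* had none in this window. The share of all 32851 windows of the table that held the core was 32.4%. The longer form TNGCGTG, which contains the core, was found once, in *Ahrr*, and in 5.07% of all windows. The antioxidant response element TGACNNNGC was found in none of the 5 and in 12.4% of all windows. Of the 4 members with a core, 3 are printed 5′ to 3′ on the strand of the gene, to show where the cores lie. These are the 3 with all or most of the bases before the start outside the annotated gene. For *Tiparp* the stretch ends at base -38, just before the gene annotated by Ensembl begins. *Nqo1*, without a core, is not printed. Capitals mark the core, read as CACGC where it is on the opposite strand. The stretches are chr13:74292332-74292511 (minus strand, bases -180 to -1) for *Ahrr*, chr3:65528267-65528409 (plus strand, bases -180 to -38) for *Tiparp* and chr17:79715062-79715241 (minus strand, bases -180 to -1) for *Cyp1b1*.
Ahrr: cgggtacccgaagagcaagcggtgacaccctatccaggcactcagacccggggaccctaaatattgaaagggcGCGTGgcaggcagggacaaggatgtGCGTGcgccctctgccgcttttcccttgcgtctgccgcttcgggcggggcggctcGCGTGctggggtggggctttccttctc
Tiparp: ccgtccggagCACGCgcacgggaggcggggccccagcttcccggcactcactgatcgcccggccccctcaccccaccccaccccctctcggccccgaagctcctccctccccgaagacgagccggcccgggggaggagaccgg
Cyp1b1: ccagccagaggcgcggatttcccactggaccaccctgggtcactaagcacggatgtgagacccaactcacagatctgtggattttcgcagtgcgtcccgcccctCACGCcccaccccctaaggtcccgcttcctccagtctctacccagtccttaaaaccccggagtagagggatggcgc
A match of letters is a description and no binding was measured here.

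*Ahr* (Entrez 11622, chr12:35497979-35534989, minus strand) encodes the receptor. Its normalized counts were 10766 to 21592 in WT (median 13774), 18084 to 26050 in *Ahr*-/- (median 23973) and 8324 to 21894 in the samples labelled *Ahrr*-/- (median 11605). The *Ahr*-/- samples lay in the upper range, but the M1 and F2 samples of WT and the F1 and F2 samples of the group labelled *Ahrr*-/- reached into it. The 3 libraries high in enterocyte genes had the 3 lowest values of their group, 8324 to 11215. In mean normalized counts, *Ahr*-/- had 149.5% of WT (141.3% to 163.3% with each sample left out in turn). Reads over the whole gene were counted, so this transcript level does not check the deletion. The antisense *Gm48236* overlaps *Ahr* by 618 bases and is not in the table. The strand used in counting is not stated, so reads of both genes cannot be told apart there.

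*Ahrr* (Entrez 11624, chr13:74211118-74292331, minus strand) encodes the AHR repressor, which competes with AHR for ARNT. It had 819.0 to 1281 normalized counts in WT (median 1047), 0 to 9.43 in *Ahr*-/- (median 0.837) and 925.0 to 1888 in the samples labelled *Ahrr*-/- (median 1281). In *Ahr*-/- the gene was nearly silent: 2 of the 6 samples, F1 and M1, had 0 counts, and 10 of the 14 counts of the group came from F3. The *Ahr*-/- mean was 0.205% of the WT mean. Without F3 of *Ahr*-/- it was 0.0675%, which makes the WT mean 487-fold higher with that library and 1481-fold higher without it. The group labelled *Ahrr*-/- was not low in *Ahrr* and had 125.9% of the WT mean (115.2% to 133.5% with each sample left out). Its F1, F2 and M2 samples, with 1519 to 1888 normalized counts, all exceeded the highest WT sample, while the 3 libraries high in enterocyte genes, with 925.0 to 1043, lay within the WT range. Without those 3 libraries the group had 156.8% of the WT mean. As with *Ahr*, a count over the whole gene does not show whether the deleted part was missing from these transcripts.

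*Tiparp* (Entrez 99929, chr3:65528447-65555518, plus strand) encodes an ADP-ribosyltransferase that limits AHR signalling. It had 3467 to 7337 normalized counts in WT (median 5773), 620.5 to 1081 in *Ahr*-/- (median 890.9) and 2640 to 9761 in the samples labelled *Ahrr*-/- (median 4337). Every *Ahr*-/- sample lay below every other sample, and the other groups overlapped. *Ahr*-/- kept 15.2% of the WT mean (14.1% to 16.1% with each sample left out), so unlike *Ahrr* this gene kept 545 to 1179 counts in each *Ahr*-/- library. The group labelled *Ahrr*-/- spanned a wider range than WT, from M3, one of the 3 libraries high in enterocyte genes, to F1. It had 94.6% of the WT mean with all libraries and 126.1% without those 3. The antisense pseudogene *4931440P22Rik* overlaps *Tiparp* by 970 bases, and reads of both cannot be told apart there.

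*Cyp1a1* (Entrez 13076, chr9:57687928-57703824, plus strand) encodes the cytochrome P450 most often used as a readout of AHR activity. It had 0 counts in all 6 WT libraries, which allows up to 3 counts in each, for counting error only. In *Ahr*-/- it had 10 counts, 6 of them in F3 and none in F1 or F2. In the group labelled *Ahrr*-/- it had 58 counts, of which 28, 18 and 11 were in F3, M1 and M3 and 1 was in the other libraries. The counts were thus highest in the 3 libraries with the most enterocyte signal, as the plot of *Cyp1a1* against the enterocyte sum shows, and the part of enterocyte RNA in them was not tested. In a limma fit without a minimum, WT minus *Ahr*-/- was -0.24 (95% interval -0.446 to -0.035, unadjusted p = 0.0257, adjusted p = 0.257), not called and resting on these 10 counts. WT minus the group labelled *Ahrr*-/- was -0.49 (-0.901 to -0.072, unadjusted p = 0.0257, adjusted p = 0.739 from limma), and that group minus *Ahr*-/- was 0.25 (adjusted p = 0.561 from limma). Without F3, M1 and M3, the group labelled *Ahrr*-/- had a mean log2 value of 5.11, resting on 1 count. This lay below the 5.26 of *Ahr*-/-, so the direction between both mutants turned, and above the 5.02 of WT.

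**Figure D1:**
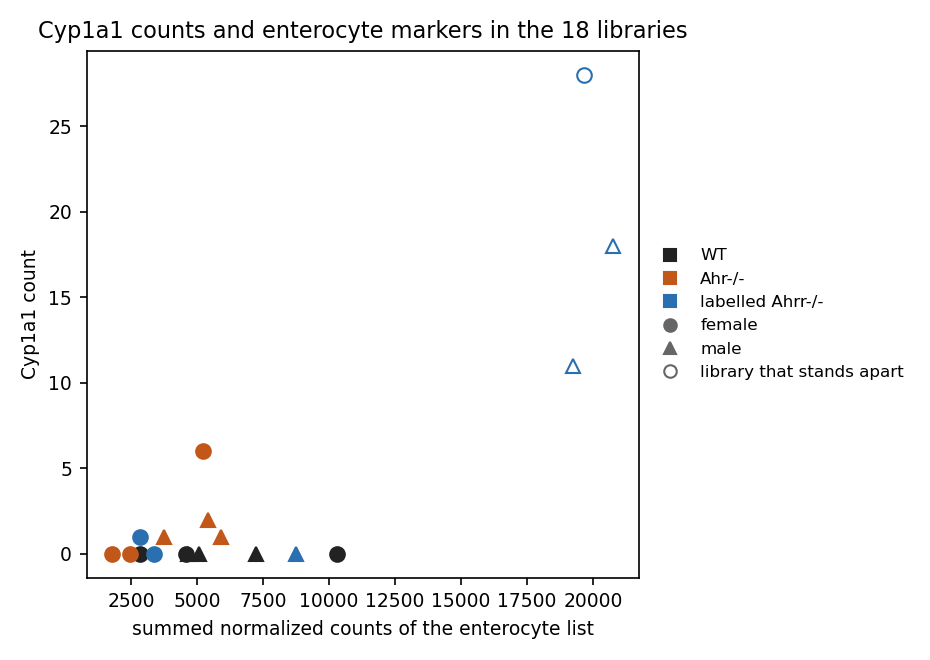
*Cyp1a1* counts (y axis) against the summed normalized counts of 10 enterocyte genes (x axis) in the 18 libraries, 1 point per library, coloured by group, with triangles for males. The 3 open points, F3, M1 and M3 of the group labelled *Ahrr*-/-, have 28, 18 and 11 counts and lie at 19257 to 20776 on the x axis, and no other library has more than 6 counts.

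*Cyp1b1* (Entrez 13078, chr17:79706940-79715061, minus strand) encodes a related cytochrome P450. It had 348.6 to 1134 normalized counts in WT (median 735.6), 0.758 to 4.71 in *Ahr*-/- (median 2.25) and 552.8 to 1339 in the samples labelled *Ahrr*-/- (median 845.9). The *Ahr*-/- libraries had 1 to 5 counts each, 17 in all, far below the other groups. F1 and F2 of WT, with 349.0 and 348.6 normalized counts, were the lowest samples of the other groups. *Ahr*-/- kept 0.364% of the WT mean (0.304% to 0.415% with each sample left out), and the group labelled *Ahrr*-/- had 129.0% (117.1% to 146.2%), or 153.3% without the 3 libraries high in enterocyte genes.

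*Nqo1* (Entrez 18104, chr8:107388225-107403205, minus strand) encodes a quinone reductase that is also a target of NRF2. It had 206.5 to 283.7 normalized counts in WT (median 270.9), 26.4 to 64.9 in *Ahr*-/- (median 32.6) and 207.0 to 450.8 in the samples labelled *Ahrr*-/- (median 256.8). WT was tight, M2 stood above the other 5 samples within *Ahr*-/-, and M1, one of the 3 libraries high in enterocyte genes, stood above its group. *Ahr*-/- kept 14.6% of the WT mean, and 12.4% without its M2. The group labelled *Ahrr*-/- had 112.5% of WT, 99.5% without its M1 and 108.0% without the 3 libraries high in enterocyte genes. Thus in *Ahr*-/- 2 members, *Ahrr* and *Cyp1b1*, fell below 1% of WT, while *Tiparp* and *Nqo1* kept about 15%.

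**Figure D2:**
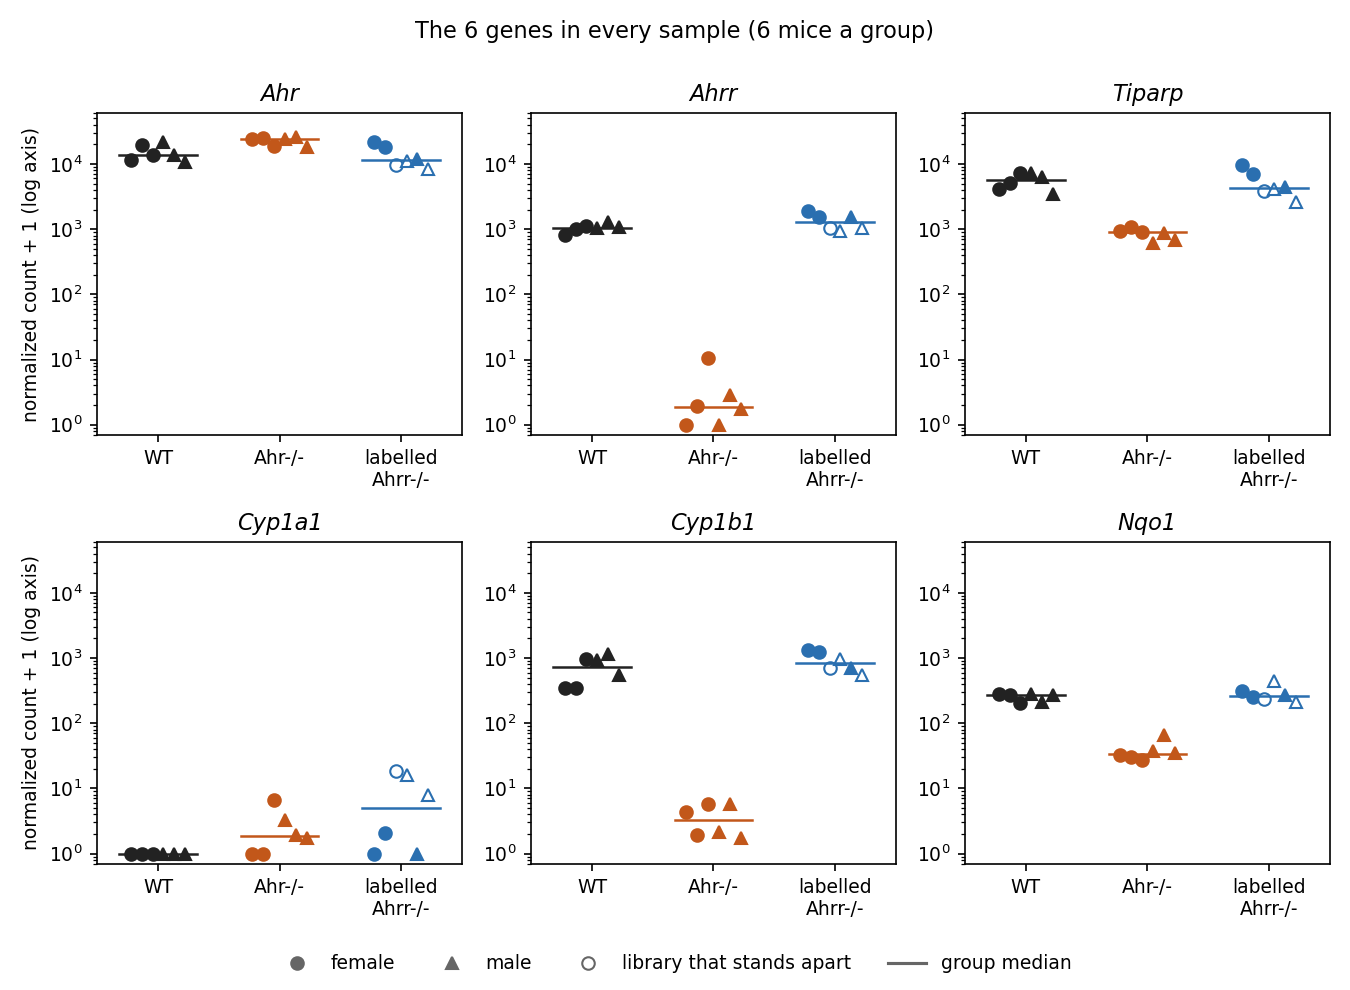
Normalized counts plus 1 on a log axis for each of the 6 genes in every sample, 6 mice a group, with circles for females, triangles for males, open symbols for the 3 libraries high in enterocyte genes and a line at the group median. *Ahrr*, *Tiparp*, *Cyp1b1* and *Nqo1* lie lower in all 6 *Ahr*-/- samples than in any other sample, *Ahr* does not, and *Cyp1a1* is at 0 in all 6 WT samples.

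Levels can be set against each other between genes only per length, here as mean normalized counts per kilobase of exon, ranked over 22228 genes. In WT the order was *Ahr* (2466, rank 83), *Tiparp* (1289, rank 185), *Nqo1* (163.7), *Cyp1b1* (122.3), *Ahrr* (111.5) and *Cyp1a1* (0). The receptor was thus among the most abundant transcripts of these cells. *Ahr* exceeded *Tiparp* in 6 of 6 WT samples without overlap, whereas *Nqo1* overlapped with *Cyp1b1*, and *Cyp1b1* with *Ahrr*. In the group labelled *Ahrr*-/- the order was the same with all 6 libraries. Its levels were 2201 for *Ahr*, 1220 for *Tiparp*, 184.1 for *Nqo1*, 157.8 for *Cyp1b1*, 140.4 for *Ahrr* and 2.41 for *Cyp1a1*. There the ranges of *Ahr* and *Tiparp* overlapped too, although *Ahr* was above *Tiparp* within each of the 6 samples. Without the 3 libraries high in enterocyte genes the order changed, with *Cyp1b1* (187.5) above *Nqo1* (176.7) and *Ahrr* (174.9), and *Cyp1a1* at 0.129. The SDs of the first 3 were 58.5, 20.7 and 21.8, larger than the gaps between them, so this change of order is not resolved. In *Ahr*-/- the per-kilobase level of *Ahr* was 3688 (rank 51), followed by *Tiparp* (195.4) and *Nqo1* (23.9). The last 3 places there, 0.576 for *Cyp1a1*, 0.445 for *Cyp1b1* and 0.229 for *Ahrr*, rested on 10 to 17 counts per gene and overlapped.

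WT against *Ahr*-/- asks which transcripts depend on the receptor. *Ahrr* and *Cyp1b1* were among the largest differences toward WT of all genes tested, with *Ahrr* at rank 1, *Cyp1b1* at rank 3, *Tiparp* at rank 13 and *Nqo1* at rank 20. Each gene was fitted on the deposited log2 values with limma, with sex as covariate, over the 11346 genes with a mean 1 or more above that of a gene without reads, and called at a Benjamini-Hochberg adjusted p below 0.05. *Cyp1a1* lay below that minimum. Of the 5 members tested, 4 were called higher in WT, where 3.68% of all genes tested were, and none was called lower, where 5.16% were. Every WT sample exceeded every *Ahr*-/- sample for the same 4 members and for 1.89% of all genes tested. The number of genes called, 1003 by limma, was 623 without F1 of *Ahr*-/-. On the deposited log2 scale, which shrinks differences of genes with few counts, the 95% interval of the difference was 4.53 to 5.13 for *Ahrr* and 3.57 to 4.57 for *Cyp1b1* (limma). It was 2.21 to 2.99 for *Tiparp* and 1.56 to 2.08 for *Nqo1* (limma). For *Ahr* the interval was -1.01 to -0.21, and its call depended on the setting: adjusted p was 0.0557 from limma, and 9 of 26 alternatives called *Ahr* lower in WT (adjusted p 0.0145 to 0.158 over the alternatives). The transcript was lower in WT under each of the 26. Leaving out F2 or M1 of WT made the call, with adjusted p = 0.0298 and 0.0145 from limma.

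The group labelled *Ahrr*-/- against *Ahr*-/- contrasts both mutants in the same 5 members and shares the *Ahr*-/- samples with the comparison above. *Ahrr* and *Cyp1b1* held the 2 largest differences toward the group labelled *Ahrr*-/- among 11474 genes tested, at 5.11 (95% interval 4.74 to 5.49) and 4.48 (4.11 to 4.85) on the log2 scale (limma). *Tiparp* differed by 2.45 (2.003 to 2.890) and *Nqo1* by 1.93 (1.60 to 2.26). These 4 members were called higher, as were 8.04% of all genes tested, and 1 member, *Ahr*, was called lower, as were 6.84%. The balance of the genes called turned with the setting, from 923 higher and 785 lower to 827 and 981 with median centring, 819 and 1029 with quantile normalization, 281 and 432 without a minimum mean, 328 and 500 with a minimum of 3, 445 and 549 without the sex covariate and 306 and 320 without the 3 libraries high in enterocyte genes. It also turned without F1 (428 and 479), F2 (482 and 488), M1 (404 and 435) or M3 (379 and 439) of *Ahr*-/-, or M3 of the group labelled *Ahrr*-/- (445 and 478). The number of genes called, 1708 by limma, was 907, 970, 839, 933 and 818 without F1, F2, M1, M2 and M3 of *Ahr*-/-, 1001, 923 and 2574 without F3, M3 and F1 of the group labelled *Ahrr*-/-, and 626 without the 3 libraries. The same 4 exceeded *Ahr*-/- in every sample, which held for 1.6% of all genes tested. Their adjusted p ranged from 1.56e-10 for *Ahrr* to 3.82e-06 for *Tiparp* (limma). Without the 3 libraries high in enterocyte genes, the differences were 5.43 for *Ahrr*, 4.68 for *Cyp1b1*, 2.83 for *Tiparp* and 1.94 for *Nqo1*, all called by limma. *Ahr* differed by -0.82 (95% interval -1.30 to -0.33, adjusted p = 0.0296 from limma), and without those libraries by -0.45 (adjusted p = 0.216 from limma). The call of *Ahr* was also lost by leaving out F1, F2, M1, M2 or M3 of *Ahr*-/-, or F3 or M3 of the group labelled *Ahrr*-/-, with adjusted p from 0.0562 to 0.0739 (limma).

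WT against the group labelled *Ahrr*-/- asks whether the repressor gene alters the other members. Of 5 members tested, limma called 0 in either direction. Over all 11546 genes tested it called 0% higher in WT and 0.0779% lower, which is 9 genes, and 853 genes had an unadjusted p below 0.05. Those 9 became 4 without F1, F2, M2 or M3 of WT or F2, M2 or M3 of the group labelled *Ahrr*-/-, 5 without its F3 and 25 without its F1. Voom, the count model of limma, also called 0 members. No member separated the groups without overlap, which 0.459% of all genes tested did in either direction. The log2 differences, WT minus the group labelled *Ahrr*-/-, had 95% intervals of -0.36 to 0.77 for *Ahr*, -0.66 to 0.10 for *Ahrr*, -0.44 to 0.75 for *Tiparp*, -1.05 to 0.23 for *Cyp1b1* and -0.45 to 0.22 for *Nqo1* (limma). A shift of the size seen in *Ahr*-/- lay outside each of the last 4 intervals. Leaving out the 3 libraries high in enterocyte genes moved *Ahrr* to -0.64 (interval -0.99 to -0.29, unadjusted p = 0.00159, adjusted p = 0.697 from limma), and turned *Ahr* to -0.16 and *Tiparp* to -0.27. In that fit, with 6 WT samples against 3, all 5 members lay toward the group labelled *Ahrr*-/-, with -0.69 for *Cyp1b1* and -0.09 for *Nqo1*, and 0 were called by limma, with 4 of 11408 genes called and 373 with an unadjusted p below 0.05.

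**Figure D3:**
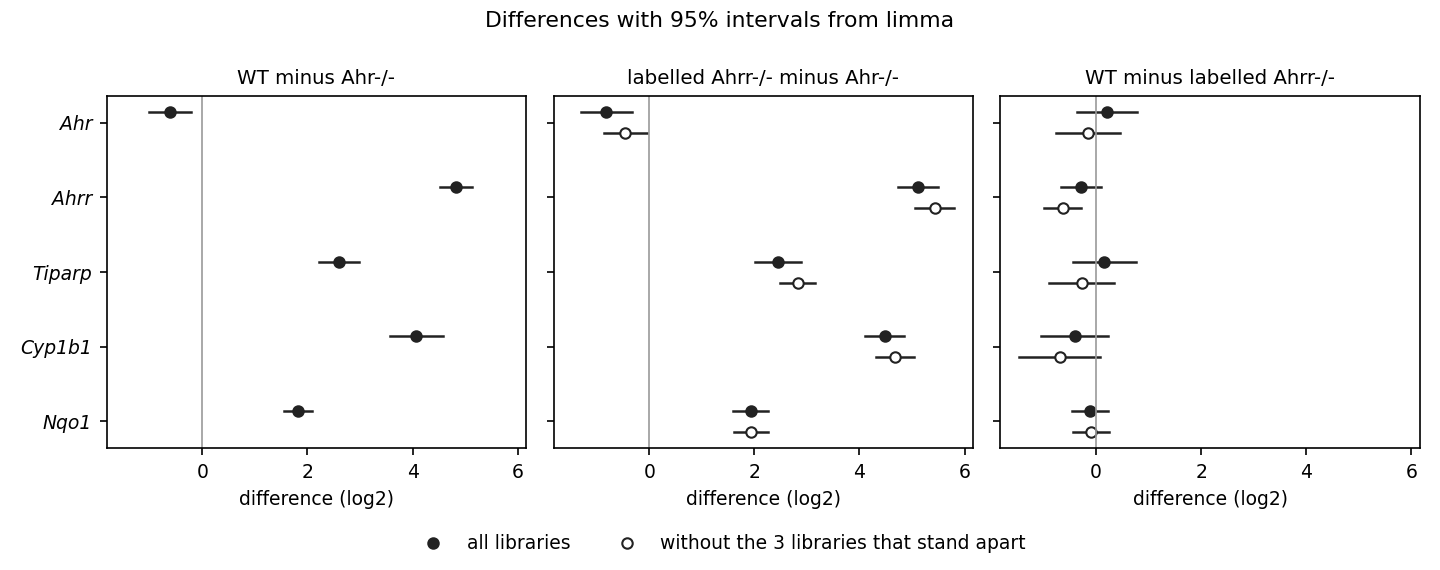
Log2 differences of the 5 tested members (x axis) with 95% intervals from limma in the 3 comparisons, filled for all libraries and open without the 3 libraries high in enterocyte genes. *Ahrr*, *Cyp1b1*, *Tiparp* and *Nqo1* lie far right of 0 in both comparisons with *Ahr*-/-, and the right panel, WT minus the group labelled *Ahrr*-/-, holds values between -0.69 and 0.20.

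The members were not called as differing by sex. With genotype in the model, limma called 0 of 5 members between males and females, and 3.06% of all 11468 genes tested, 351, were called, with 2145 at an unadjusted p below 0.05. *Tiparp* came nearest, with a male minus female difference of -0.39 (95% interval -0.79 to 0.01, adjusted p = 0.285 from limma). Its normalized counts were 895.4 to 1081 in *Ahr*-/- females and 620.5 to 886.3 in *Ahr*-/- males, without overlap, while WT females (4071 to 7337) and males (3467 to 7294) overlapped. Females (3810 to 9761) and males (2640 to 4483) of the group labelled *Ahrr*-/- overlapped too, with the widest gap in mean log2 value of any group, 12.66 against 11.87. The 3 libraries high in enterocyte genes, with the lowest *Tiparp* values of that group, were unequal between the sexes (males M1 and M3, female F3). No genotype effect on a member was called as differing between males and females by limma, with 0 interactions called in each of the 3 comparisons. In each, limma called 0% of all genes tested, with 533 genes for WT and *Ahr*-/-, 544 for WT and the group labelled *Ahrr*-/- and 375 for both mutants at an unadjusted p below 0.05. *Cyp1b1* had the largest such difference of any member, 1.19 between WT and the group labelled *Ahrr*-/- (95% interval 0.063 to 2.31, unadjusted p = 0.0399, adjusted p = 0.727 from limma). There its normalized counts were 349.0, 348.6 and 982.9 in F1, F2 and F3 of WT and 551.7 to 1134 in WT males, against 713.3 to 1339 in females and 552.8 to 978.6 in males of the group labelled *Ahrr*-/-.

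Within a genotype the members were also compared sample by sample, in 23 pairs over 6 samples each, leaving out members near the lowest value. Of the 23, 18 correlations were positive, 6 had an unadjusted exact permutation p below 0.05 and 0 passed after Benjamini-Hochberg adjustment. The smallest exact permutation p that 6 samples allow, in 1 pair alone, adjusts to 0.0639 over 23 pairs. No pair could therefore pass by itself. The closest pair was *Ahr* and *Tiparp* in the group labelled *Ahrr*-/-, with Pearson r = 0.988 and Spearman rho = 1.0 (exact two-sided permutation p = 0.00278 for each, the smallest that 6 samples allow, adjusted p = 0.0639). Without the 2 samples farthest from the median of *Ahr*, r was 0.950. The 3 libraries high in enterocyte genes had the 3 lowest values of both genes there. In WT the same pair had r = 0.633 (exact permutation p = 0.178), with rho = 0.714, and r was 0.993 without the 2 farthest samples. In *Ahr*-/- r was 0.385 (exact permutation p = 0.386), with rho = 0.429, and 0.529 without the 2 farthest. *Ahrr* and *Cyp1b1* had r = 0.819 in WT (exact permutation p = 0.0278, adjusted p = 0.1597; rho = 0.886), and 0.687 without the 2 farthest samples. *Ahrr* and *Nqo1* had r = -0.773 in WT (exact permutation p = 0.0472, adjusted p = 0.164; rho = -0.771). With each sample centred on its median, 2 pairs passed, *Ahr* with *Tiparp* in the group labelled *Ahrr*-/- (r = 0.9903) and *Ahrr* with *Cyp1b1* in WT (r = 0.820), each with an exact permutation p of 0.00278 and an adjusted p of 0.0319.

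**Figure D4:**
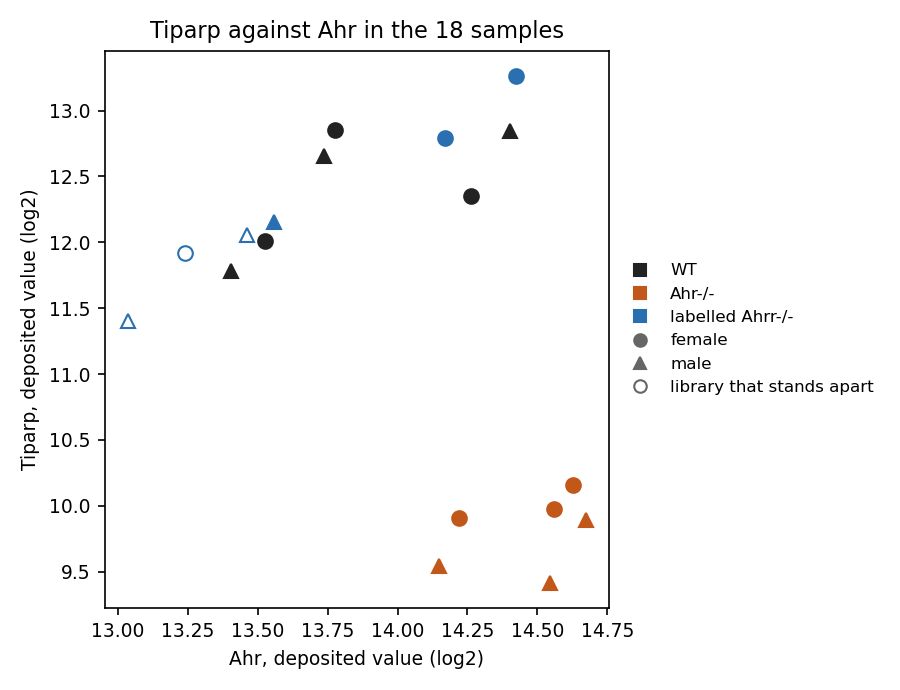
*Tiparp* against *Ahr* in the 18 samples, both as deposited log2 values, coloured by group, with triangles for males and open symbols for the 3 libraries high in enterocyte genes. The *Ahr*-/- samples lie at 9.42 to 10.16 for *Tiparp*, below the 11.40 to 13.26 of the other samples, although their *Ahr* values, 14.15 to 14.67, are at the upper end.

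For each member except *Cyp1a1*, the genes with the most similar pattern were sought among 11460 others, by the root mean square difference of centred log2 values over the 18 samples. For *Ahrr* these were *Cyp1b1* (0.502), *Aox4* (0.611) and *Aox2* (0.620). For *Cyp1b1* they were *Ahrr* (0.502), *Aox4* (0.514) and *Aox2* (0.527), so on this scale these members were each other's nearest gene and shared both others, which encode aldehyde oxidases. On log2(count + 1), *Ahrr* was not among the 3 nearest genes of *Cyp1b1*, while *Aox4* and *Aox2* were. *Aox4* had mean log2 values of 9.18 in WT, 5.32 in *Ahr*-/- and 9.12 in the group labelled *Ahrr*-/-, and *Aox2* had 9.28, 5.40 and 9.10. *Tiparp* was closest to *Ggta1* (0.418), *Nmur1* (0.431), the receptor for neuromedin U, and the chemokine gene *Cxcl3* (0.452). The WT minus *Ahr*-/- differences of these 3 were 1.84, 2.51 and 2.70, beside 2.60 for *Tiparp*. *Nqo1* was closest to *Notch1* (0.343), *Acpp* (0.368) and *Asb2* (0.373), whose differences were 1.72, 1.65 and 1.70, beside 1.82 for *Nqo1*. *Ahr* was closest to *Fnip1* (0.172), *Dgkg* (0.178) and *Fam32a* (0.180), which like *Ahr* had their highest mean in *Ahr*-/-, 11.33, 11.02 and 12.58 on the log2 scale. A small distance for *Ahr* reflects its smaller spread over the samples, 0.509 in SD, against 2.36 for *Ahrr*. On log2(count + 1), all 3 nearest genes were shared for *Ahr* and *Ahrr*, 2 of 3 for *Tiparp* and *Cyp1b1*, and none for *Nqo1*.

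**Figure D5:**
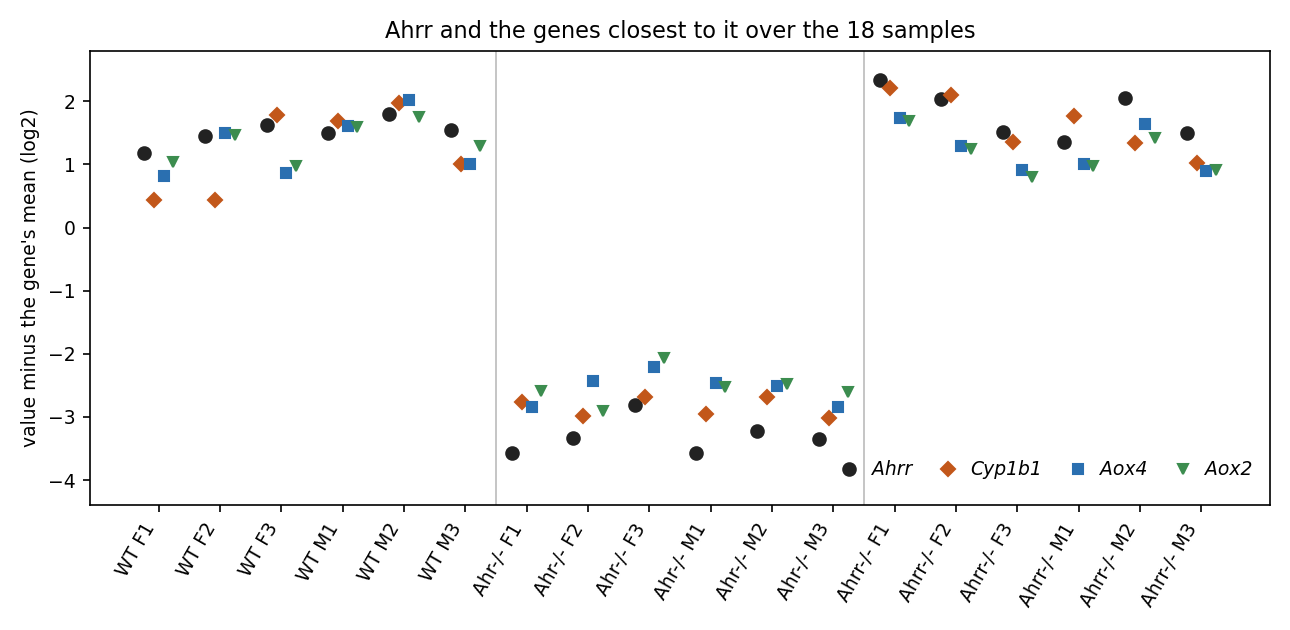
Log2 values of *Ahrr* and its 3 nearest genes in each of the 18 samples (x axis), each gene centred on its own mean (y axis). All 4 genes lie below -2 in the 6 *Ahr*-/- samples and above 0 in the 12 others.

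Around the members, 5 lists of the wider pathway held 80 other genes. In WT against *Ahr*-/-, 58 were tested and 6 called by limma, 4 higher in WT (3.68% of all genes tested were) and 2 lower (5.16%), and the median difference was 0.07 against 0.0041 over all genes tested. Among 15 tested AHR-responsive genes (median 0.15), *Socs2*, a brake on cytokine signalling, was higher in WT by 1.504 (376.2 to 1323 normalized counts against 157.7 to 312.0), and the transporter gene *Abcg2* was lower by 1.24 (448.1 to 644.9 against 1250 to 1659). Both were called in each fit that left out 1 sample, and neither group overlapped the other. *Nfe2l2*, which encodes NRF2 and was the most abundant gene of that list, had a median of 2560 normalized counts in WT and 1715 in *Ahr*-/- and was not called (adjusted p = 0.0504 from limma). Of 19 tested genes of the AHR complex and its partners (median 0.06), only *Hsp90aa1*, a chaperone gene, was called, higher in WT by 0.63, while the most abundant, *Hsp90ab1*, was not (0.35). Of 6 tested enzymes of tryptophan-derived ligands (median 0.01), *Kyat3* was called at 0.45, a call lost without any 1 sample except F2 and M1 of WT (adjusted p up to 0.120, limma), and *Maoa*, the most abundant, was not (0.20). Of 8 hypoxia targets tested (median 0.21), *Ldha*, the most abundant, was higher in WT by 0.63, and the call was lost without F3 or M3 of WT or F1, F2 or M3 of *Ahr*-/- (adjusted p up to 0.0715, limma). Of 10 NRF2 targets tested (median -0.19), *G6pdx* was lower in WT by 0.42, and *Gsr*, the most abundant, differed by 0.12 and was not called.

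Against the group labelled *Ahrr*-/-, WT differed in 0 of 61 tested genes of these lists (limma, median -0.15 against -0.01 over all genes tested). In the list medians, WT lay lower by 0.23 in AHR-responsive genes, by 0.30 in ligand enzymes, by 0.10 in hypoxia targets and by 0.12 in NRF2 targets, and higher by 0.02 in the complex. These medians include the 3 libraries high in enterocyte genes. Without them, the most abundant gene of 2 lists turned, *Maoa* from -0.65 to 0.24 and *Ldha* from -0.05 to 0.16. Those of the others kept their sign, *Nfe2l2* (-0.23 to -0.26), *Hsp90ab1* (-0.10 to -0.03) and *Gsr* (0.31 to 0.06). Between both mutants, 10 of 60 were called, 8 higher in the group labelled *Ahrr*-/- (8.04% of all genes tested) and 2 lower (6.84%), with a median of 0.25 against -0.0026 over all genes tested. With all libraries, the list medians were 0.41 for AHR-responsive genes, 0.05 for the complex, 0.42 for ligand enzymes, 0.24 for hypoxia targets and -0.13 for NRF2 targets. *Socs2* (1.48), *Nfe2l2* (0.66) and *Abcg2* (-1.13) were called in each fit that left out 1 sample, and also without the 3 libraries high in enterocyte genes (1.65, 0.67 and -1.39). The count of 10 became 4, 5, 4 and 3 without F1, F2, M1 and M3 of *Ahr*-/-, 18 and 5 without F1 and M3 of the group labelled *Ahrr*-/-, and 6 without the 3 libraries. *Xdh* (0.88) lost its call without F2 or M3 of *Ahr*-/- (adjusted p up to 0.0550, limma), *Relb* (0.59) without F1, M1 or M3 of *Ahr*-/- (up to 0.0573, limma), and *Kynu* (0.68) without F1, M1 or M3 of *Ahr*-/- or F3 or M3 of the group labelled *Ahrr*-/- (up to 0.0663, limma). *Cyp2s1* (0.85) lost its call without any 1 *Ahr*-/- sample except F3, or any 1 of the 3 libraries high in enterocyte genes (up to 0.0885, limma). *Ugt1a7c* (0.66), named after its values were seen, lost its call without F1, F2, M1 or M3 of *Ahr*-/- or any 1 of the 3 libraries (up to 0.0764, limma). *Ldha* (0.67) lost its call without any 1 *Ahr*-/- sample except F3, or M3 of the group labelled *Ahrr*-/- (up to 0.0869, limma), and *G6pdx* (-0.45) without any 1 *Ahr*-/- sample, or F3 or M3 of the group labelled *Ahrr*-/- (up to 0.0830, limma). Without the 3 libraries high in enterocyte genes, *Relb* remained called at 0.60 (adjusted p = 0.0386 from limma), as were *Hsp90aa1* at 0.73 (adjusted p = 0.0396 from limma) and *Vegfa*, a hypoxia target, at 0.76 (adjusted p = 0.0141 from limma), the latter named after its values were seen. *Xdh* (0.56), *Cyp2s1* (0.40), *Ugt1a7c* (0.28), *Ldha* (0.48) and *G6pdx* (-0.39) were not called then, and *Kynu* was below the minimum mean.

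Other cell types were followed with 10 marker lists, since RNA from fewer cells of a type and less RNA per cell cannot be told apart in bulk. The eosinophil sum was 24866 to 38211 in WT, 38503 to 49555 in *Ahr*-/- and 14322 to 38775 in the group labelled *Ahrr*-/-, and most of it came from *Alox15* and *Ccr3*. Of its 5 tested genes, *Alox15* and *Prg2* were called lower in WT than in *Ahr*-/- by limma, with -0.58 and -2.30. The call of *Alox15* was lost without M3 of WT or F1, F2, F3 or M3 of *Ahr*-/- (adjusted p up to 0.0589, limma). Against *Ahr*-/-, the group labelled *Ahrr*-/- was called lower by limma in 4 of the 5 tested genes, *Prg2* (-2.07), *Alox15* (-0.79), *Il5ra* (-0.75) and *Siglecf* (-0.72). *Prg2* and *Il5ra* were called in each fit that left out 1 sample, *Siglecf* in each except that without M3 of *Ahr*-/- (adjusted p = 0.0558, limma), and *Alox15* lost its call without any 1 *Ahr*-/- sample except F3, or F3 or M3 of the group labelled *Ahrr*-/- (up to 0.0913, limma). Without the 3 libraries *Prg2* (-2.003) and *Siglecf* (-0.49, adjusted p = 0.0481, limma) were called, and *Alox15* (-0.47) and *Il5ra* (-0.49) were not. The part of the eosinophil sum in these results was not tested. Enterocyte genes, with *Fabp2* the most abundant per kilobase, gave sums of 2839 to 10285 in WT and 1763 to 5906 in *Ahr*-/-, and limma called 0 of 10 between them. *Epcam* (1.12) and *Sis* (1.63) were called higher in the group labelled *Ahrr*-/- than in *Ahr*-/-, and neither was without the 3 libraries (0.55 and 0.64). Leaving out M3 of *Ahr*-/- also ended the call of *Epcam* (adjusted p = 0.0528 from limma), and *Sis* lost its call without any 1 *Ahr*-/- sample except F3, or M1 or M3 of the group labelled *Ahrr*-/- (up to 0.0880, limma).

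Pancreatic acinar genes summed to 82.2 to 4580 in WT, 38.6 to 582 in *Ahr*-/- and 85.95 to 2632 in the group labelled *Ahrr*-/-, and *Ctrb1* (2.74), *Cela2a* (1.55) and *Prss2* (1.22) were called higher in WT than in *Ahr*-/- (limma). The call of *Ctrb1* was lost without F3 of WT or F2 or F3 of *Ahr*-/- (adjusted p up to 0.0544, limma), that of *Prss2* without any 1 *Ahr*-/- sample (up to 0.105), and that of *Cela2a* without any 1 except M1 (up to 0.0854). Both were below the minimum in 4 of these 12 fits. *Clps* was called between both mutants (1.22), but not without the 3 libraries (0.54, adjusted p = 0.265, limma), nor without any 1 of them or F1, M1, M2 or M3 of *Ahr*-/- (up to 0.0743, limma). *Ahrr* had 819.0, 989.9, 1136, 1027, 1281 and 1066 normalized counts in F1, F2, F3, M1, M2 and M3 of WT, where the acinar sum was 1890, 1267, 1660, 82.2, 187 and 4580. The part of acinar RNA was not tested. Macrophage and dendritic cell genes, mostly *Itgax*, summed to 7370 to 10698 in WT, 10212 to 13942 in *Ahr*-/- and 8103 to 14139 in the group labelled *Ahrr*-/-, with *Itgax* lower in WT than in *Ahr*-/- by 0.42, a call lost without any 1 sample except F2 and M1 of WT and M2 of *Ahr*-/- (adjusted p up to 0.104, limma). The list median there was 0.19, toward WT. The 6 tested genes not called were *H2-Ab1* (0.44), *Cd74* (0.41), *Mertk* (0.20), *C1qc* (0.19), *H2-Aa* (-0.05) and *C1qb* (-0.12). The sum thus mainly followed *Itgax*. Over the 18 samples *Itgax* was lowest in M3 of the group labelled *Ahrr*-/- (3757 normalized counts), as were *Siglecf* (836.8) and *Alox15* (7155). The cell type that *Itgax* came from was not tested. Between both mutants *C1qb* (1.06) and *Itgax* (-0.61) were called, and without the 3 libraries neither was, at 1.07 and -0.32 (adjusted p = 0.116 and 0.186, limma), so the difference of *C1qb* did not shrink without them. The call of *C1qb* was also lost without any 1 sample except F3 of *Ahr*-/- and F1 of the group labelled *Ahrr*-/- (up to 0.106, limma), and that of *Itgax* without any 1 *Ahr*-/- sample except F3, or F3 or M3 of the group labelled *Ahrr*-/- (up to 0.0750, limma). In the neutrophil list *Retnlg* made up nearly all of the sum (23350 to 48259 in WT and 54605 to 113020 in *Ahr*-/-, a called difference of -1.21). *Elane* had 8 counts over the 18 samples, *Ly6g* 23, *Mpo* 44, *Camp* 304, *Ltf* 530 and *Ngp* 827. In normalized counts, F3 of *Ahr*-/- and F2 of the group labelled *Ahrr*-/- were highest in their groups for *Ngp* (215.8 and 431.9). The same held for *Ltf* (80.1 and 171.9), *Camp* (100.9 and 202.0) and *S100a8* (719.2 and 1274). The part of neutrophil RNA was not tested. *S100a8* (-2.06) and *S100a9* (-2.10) were 2 of the 9 genes called lower in WT than in the group labelled *Ahrr*-/-, and they were also called without the 3 libraries (-2.16 and -2.21). Between both mutants they differed by 1.73 and 1.69, and *Retnlg* by -1.29, each called in every fit that left out 1 sample.

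B and plasma cell genes, mostly *Jchain*, summed to 229 to 1775 in WT, 96.1 to 740 in *Ahr*-/- and 333 to 6045 in the group labelled *Ahrr*-/-, where F2, outside the 3 libraries, had 5438, and *Jchain* was called between both mutants (3.20), though not without the 3 libraries (2.40, adjusted p = 0.0819 from limma). Fibroblast genes, with *Dcn* the most abundant, reached 1626 in M3, 920 in F3 and 477 in M1 of the group labelled *Ahrr*-/- and at most 202 in WT and *Ahr*-/-, and endothelial genes, with *Plvap* the most abundant, reached 359 there and at most 233 elsewhere. *Col1a2* (1.09) and *Cdh5* (0.70) were called between both mutants by limma, and both calls were lost without F2, M1, M2 or M3 of *Ahr*-/- or any 1 of the 3 libraries, and that of *Col1a2* also without F1 of *Ahr*-/- (adjusted p up to 0.0892 and 0.0774, limma). T cell and innate lymphocyte genes summed to 21.1 to 194 over the 18 samples. Mast cell genes, with *Mcpt1* the most abundant, summed to 2.37 to 142, and none passed the minimum. The parts of these cell types in the members' values were not tested.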

How the data were processed

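Each of 18 mice, 6 per genotype label, gave 1 library of total RNA from sorted small intestinal eosinophils. The authors aligned reads to GRCm38 with STAR 2.5.2 and RSEM 1.3.0 and deposited variance-stabilized log2 values from DESeq2, with 22708 genes. Counts were recovered from the deposited log2 values (100% within 0.0001 of a whole number). Total counts per sample had medians of 6022409.5 in WT, 9647589.5 in *Ahr*-/- and 10371556 in the group labelled *Ahrr*-/-. Tests used limma 3.58.1 with statmod 1.5.0 in R 4.3.3, with a variance trend, sex as covariate, the 12 samples of the 2 groups, a minimum mean of 1 above the lowest value and a Benjamini-Hochberg adjusted p below 0.05. The fits were checked on simulated data. The rest used pandas 2.3.3 and numpy 2.4.6, with figures from matplotlib 3.10.9 and correlations from scipy 1.17.1, in Python 3.11.15. Genes with a symbol shared by several IDs were named by ID. Positions were those of RefSeq for GRCm38, while overlaps with antisense genes were counted on the Ensembl positions.

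Named genes were the 6 members, the 3 nearest genes of each, and for each list its most abundant gene and its called genes, at most the 4 with the largest differences per comparison in a pathway list and 3 per comparison in a marker list. *Ugt1a7c*, *Vegfa*, a 4th called eosinophil gene, and the eosinophil and neutrophil genes that were not called were named after their values were seen. Members and lists were chosen with earlier results of these data known. The lists were 5 of the pathway (AHR-responsive genes, AHR complex and partners, tryptophan-derived ligand enzymes, hypoxia targets, NRF2 targets) and 10 of marker genes. Alternatives were no minimum or a minimum of 3, median centring, quantile normalization, log2(count + 1), log2(count + 8), voom, no trend, a robust trend, sample weights, no sex covariate, a replicate block, all 18 samples and leaving out each sample. Fits without the 3 libraries high in enterocyte genes, or without the 2 libraries with the most genes detected, were chosen after seeing the data.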

Additional observations from a re-analysis of the deposited data

Results flagged for a closer look

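A sample was flagged when its gap to the nearest other sample of its group was a large part of the group's range (Dixon's test), in 17 groups of member values and 30 groups of marker sums. Chance flags about 1 in 20 groups of independent, normally distributed values. Members were tested on log2 values but marker sums on normalized counts, and the sums share libraries. That share need therefore not hold for the marker sums. *Nqo1* in M2 of *Ahr*-/- had a deposited log2 value of 6.92, far above the other 5. The pancreatic acinar sum was high in M1 of *Ahr*-/- (581.8) and in M1 of the group labelled *Ahrr*-/- (2632). The sum of T cell and innate lymphocyte genes was high in F3 of *Ahr*-/- (104.6) and low in F1 of the group labelled *Ahrr*-/- (21.94). Mast cell genes were high in F3 of WT (43.36) and low in M1 of *Ahr*-/- (5.693). Fibroblast genes (202.4) and endothelial genes (233.3) were high in F3 of WT, a library with fewer counts than any other. The causes were not tested.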

How the results depend on the processing

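*Ahrr*, *Tiparp*, *Cyp1b1* and *Nqo1* kept direction and call in both comparisons with *Ahr*-/- under every alternative that tested them. *Ahrr*, *Cyp1b1* and *Nqo1* failed the minimum of 3 there, which left 2 members called in each of these comparisons. With 1 sample left out, 4 to 5 members were called in both, and 0 to 0 between WT and the group labelled *Ahrr*-/-. *Ahr*, not called between WT and *Ahr*-/-, was called under 9 of 26 alternatives, and its call between both mutants ended under 10 of 27.

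Genes called between WT and *Ahr*-/- were 1003, and 623 without a minimum, 553 with all 18 samples and 586 without the 2 libraries with the most genes detected (623 to 1124 with 1 sample left out). Between WT and the group labelled *Ahrr*-/- they were 9, and 4 without a minimum, with median centring, with log2(count + 1), with voom and without the 3 libraries, 5 with a minimum of 3 and with quantile normalization, 18 with sample weights and 14 with all 18 samples (4 to 25). Between both mutants they were 1708, and 713 without a minimum, 828 with a minimum of 3, 994 without the sex covariate and 626 without the 3 libraries (818 to 2574). Pathway genes called were 6 between WT and *Ahr*-/-, and 3 with all 18 samples (4 to 6). Between both mutants they were 10, and 4 without a minimum, 5 with a minimum of 3, 5 without the sex covariate and 6 without the 3 libraries (3 to 18). Related pairs were 0, and 2 with median centring, and in neither could a pair pass by itself. Fewer genes were tested under the minimum of 3, and the causes of the other changes were not tested.

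Replicate numbers did not pair the samples, as same-numbered samples deviated together with correlations of -0.592 to 0.473. With a replicate block, 918, 4 and 1946 genes were called in the 3 comparisons.

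Signs turned for small differences that were not called: *Ahr* by sex between WT and *Ahr*-/- (-0.34 quantile, -0.0051 voom, -0.0065 sample weights), *Ahr* (-0.16) and *Tiparp* (-0.27) between WT and the group labelled *Ahrr*-/- without the 3 libraries, *Nqo1* there without M1 (0.011; -0.198 to 0.011 with 1 sample left out) and by sex (0.020, sample weights), *Ahrr* by sex between both mutants (0.097 quantile, 0.32 log2(count + 1), 0.29 voom), and for males minus females *Ahr* (0.067 quantile), *Ahrr* (0.041 sample weights) and *Cyp1b1* (-0.0015 median centring, -0.059 log2(count + 1)). The causes were not tested. *Nqo1* shared 0 of 3 nearest genes on log2(count + 1).

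Counts of 0 to 28 per library limit *Cyp1a1* in all groups and *Ahrr* and *Cyp1b1* in *Ahr*-/-. WT had the lowest median depth. Genotype, litter and housing cannot be told apart, the deleted parts are not known, and the strand used in counting is not stated.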
